A study of Mus musculus with 4 samples.

Results

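Tektins and the other proteins that line the inside of the doublet microtubules of motile cilia were followed in mouse embryos with both copies of Noto carrying GFP. Noto is a homeobox transcription factor of the node and notochord. The members were 8 named genes: Tekt1, Tekt2, Tekt3, Tekt4, Enkur, Cfap45, Cfap52 and 1700007K13Rik, the last also known as Pierce1. Every array probe whose name or accession led to one of these symbols was kept, which gave 10 probes of 41174, and no probe was dropped for its value. In the older names of the array, Cfap45 is listed as Ccdc19, Cfap52 as Wdr16 and Enkur as 4933434I06Rik. Of the 8 genes 7 were measured, among 18626 measured genes in all, where a measured probe is one that the scanner software flagged as well above background on both arrays, in 1 genotype or both. The 7 had this flag in both genotypes, and Tekt3 had it in neither.

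Homozygotes were Noto GFP/GFP embryos, with GFP inserted in both copies of Noto, and their comparison embryos were Noto GFP/+ heterozygotes, which carry 1 such copy. Both were on a hybrid Sv129/CD-1 background at the early headfold stage (about E7.75), and no embryo free of the GFP allele was measured, although the series' design text speaks of wildtype samples. From each embryo the distal part with the node at its tip was cut off, its stated size differing between label fields, and 120 to 150 such parts made up a pool. RNA of 1 pool per genotype was hybridised together on 2-colour arrays, once with homozygote RNA in Cy5 (array 1) and once with the dyes exchanged (array 2). The 4 samples are thus 2 technical replicates of 1 pool per genotype. No biological replicate exists, no significance test was made, and the SD beside each value is the technical spread over the 2 arrays.

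Motile cilia are built on a ring of doublet microtubules, each a complete A tubule with a B tubule fused to its side. Proteins bound on the inner face of both tubules stabilise the doublet and set the spacing of the dynein arms outside. Tektins are filament proteins of the A tubule lumen, CFAP45 and CFAP52 lie in the B tubule, ENKUR lies by the junction that closes the B tubule, and PIERCE1 lies in the A tubule near the docking site of the outer dynein arms. In the mouse node, motile cilia of the pit cells drive the leftward flow that sets the left-right axis, and loss of CFAP45, CFAP52, ENKUR or PIERCE1 is known to disturb left-right placement of organs in people or mice. FOXJ1 and the RFX factors are the main transcription factors of motile cilium genes, and RFX factors bind a motif called the X-box.

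The probes of the genes on which the results turn are shown 5′ to 3′ in lower case, as the array files give them. Cfap45 gave the lowest ratio. The probes of 1700007K13Rik gave unlike ratios, and the capitals mark the run of 11 bases that they share (positions 50 to 60 of probe 1 and 5 to 15 of probe 2).
Cfap45: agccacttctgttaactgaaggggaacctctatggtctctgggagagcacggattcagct
1700007K13Rik probe 1: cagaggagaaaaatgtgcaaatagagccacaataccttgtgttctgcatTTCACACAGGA
1700007K13Rik probe 2: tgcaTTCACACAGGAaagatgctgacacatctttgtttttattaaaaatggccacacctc
Tekt3: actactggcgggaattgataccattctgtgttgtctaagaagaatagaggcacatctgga

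On mouse build mm8, per the array files, the Cfap45 probe lies at chr1:174382410-174382469 on the plus strand. The 1700007K13Rik probes lie at chr2:28284059-28284118 (probe 1) and chr2:28284012-28284074 (probe 2) on the minus strand, and their intervals overlap by 16 bases. The interval of probe 2 spans 63 bases for a probe of 60. The Tekt3 probe is placed at chr11:62889693-62897427 on the plus strand, a span of 7735 bases for a probe of 60, so its letters are not contiguous in the genome. Tekt1 probe 1 lies at chr11:72160917-72160975 and probe 2 at chr11:72161948-72168052, both on the minus strand, and the span of probe 2 is 6105 bases. The remaining probes lie at chr4:125824490-125824549 (Tekt2, minus), chr17:25204119-25204178 (Tekt4, plus), chr2:21098535-21098594 (Enkur, minus) and chr11:67741164-67741223 (Cfap52, minus). Which exon or UTR each probe covers was not examined.

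The promoters of the 4 members with an X-box match, and that of 1700007K13Rik, which had none, are shown from RefSeq (GRCm38.p6), each from 250 bases before to 50 bases after an annotated start. The X-box was searched as GTTNC, a spacer of 2 to 5 bases, and GNAAC, a pattern that is its own reverse complement. The forkhead motif was searched as TGTTTNC on both strands. Capitals mark these matches, and both motifs were chosen with earlier results of these data in view.
Cfap45: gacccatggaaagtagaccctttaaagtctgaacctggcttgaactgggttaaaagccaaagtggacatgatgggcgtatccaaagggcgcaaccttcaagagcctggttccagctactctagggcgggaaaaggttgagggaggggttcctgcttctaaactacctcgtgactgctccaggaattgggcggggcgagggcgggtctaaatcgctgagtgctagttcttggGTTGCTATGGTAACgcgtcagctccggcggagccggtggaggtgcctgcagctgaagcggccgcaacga
Enkur: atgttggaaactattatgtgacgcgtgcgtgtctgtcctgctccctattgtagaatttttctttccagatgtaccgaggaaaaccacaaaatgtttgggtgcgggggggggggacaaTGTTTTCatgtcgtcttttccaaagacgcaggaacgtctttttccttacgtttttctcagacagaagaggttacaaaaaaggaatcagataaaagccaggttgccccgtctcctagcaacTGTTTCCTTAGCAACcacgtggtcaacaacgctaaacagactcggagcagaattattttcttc
Tekt2: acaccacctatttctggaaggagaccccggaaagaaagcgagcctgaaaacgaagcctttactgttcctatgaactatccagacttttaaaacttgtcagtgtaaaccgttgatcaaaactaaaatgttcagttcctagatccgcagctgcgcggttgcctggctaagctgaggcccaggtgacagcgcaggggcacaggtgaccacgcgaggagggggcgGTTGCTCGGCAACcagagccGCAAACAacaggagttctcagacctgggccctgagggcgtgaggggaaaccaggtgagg
Tekt4: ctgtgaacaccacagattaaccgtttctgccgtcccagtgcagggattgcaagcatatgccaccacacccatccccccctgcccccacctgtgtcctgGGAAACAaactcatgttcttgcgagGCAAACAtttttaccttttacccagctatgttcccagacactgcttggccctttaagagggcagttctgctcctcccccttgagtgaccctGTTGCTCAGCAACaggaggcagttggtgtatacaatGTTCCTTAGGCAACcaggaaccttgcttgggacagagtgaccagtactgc
1700007K13Rik: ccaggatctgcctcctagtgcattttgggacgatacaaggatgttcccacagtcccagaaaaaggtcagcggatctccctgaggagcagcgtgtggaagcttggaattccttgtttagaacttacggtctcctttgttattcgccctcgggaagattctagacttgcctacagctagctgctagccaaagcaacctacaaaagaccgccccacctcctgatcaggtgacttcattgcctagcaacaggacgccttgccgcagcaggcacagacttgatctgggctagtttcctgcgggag

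On GRCm38.p6 these windows are chr1:172520880-172521179 (Cfap45, plus strand), chr2:21205316-21205615 (Enkur, minus), chr4:126325639-126325938 (Tekt2, minus, the first of its 3 annotated starts), chr17:25471340-25471639 (Tekt4, plus) and chr2:28466275-28466574 (1700007K13Rik, minus). All 8 members had a promoter in the table, 11 windows in all.

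The members with an X-box match were 4 of 8 (Cfap45, Enkur, Tekt2 and Tekt4), or 5 of 11 windows. Over all 32851 promoters of the same length, 2.69% held a match, and by gene 3.08% of 27025 did. Counted from the start site, which is base 1, the match begins at base -19 in Cfap45, at base -12 in Enkur, and in Tekt2 at base -29 from the first start and base -71 from the second. Tekt4 has 2 matches, which begin at bases -36 and 1. A forkhead match lay in windows of 5 of 8 members (Enkur, Tekt1, Tekt2, Tekt3 and Tekt4), against 22.8% of all genes and 20.5% of all promoters. In Enkur, 1 forkhead match begins at base -13 and overlaps the X-box match. The Cfap52 and 1700007K13Rik windows held neither motif. A match describes the letters of the window only.

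**Figure D1:**
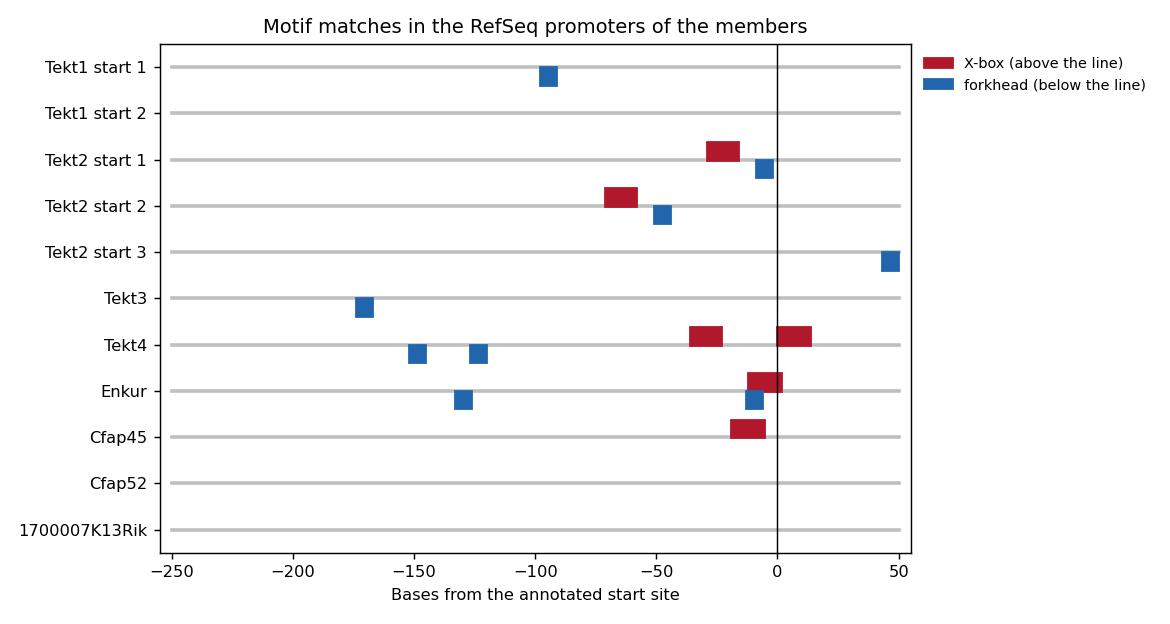
Position of X-box matches (red, above the line) and forkhead matches (blue, below the line) in the 11 promoter windows of the 8 members, in bases from the annotated start site. X-box matches lie near the start in Cfap45, Enkur, Tekt2 and Tekt4, and the windows of Cfap52 and 1700007K13Rik are empty.

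Cfap45 and 1700007K13Rik, 2 of 7 measured members, were lower in homozygotes by the size rule used here, which asks that both arrays show a change of 1.5-fold or more (a log2 ratio of 0.58) with the same sign. The number of members higher by this rule was 0. Of all 18626 measured genes, 2.33% were lower by that rule (434 genes) and 0.0591% were higher (11 genes). From the authors' deposited value table the same rule gave 651 lower and 95 higher genes. All 7 measured members had ratios below 0 on both arrays, as did 34.0% of measured genes. When each array was centred on its median and not fitted by intensity, 4 of 7 did, and 3 (Tekt1, Enkur and Cfap52) were above 0 on array 1. The median of all measured genes on array 1 was itself 0.39 with this scaling, and Tekt1 (0.33) and Enkur (0.18) lay below it. The share of all measured genes below 0 on both arrays was not worked out for this scaling. Neither Cfap45 nor 1700007K13Rik then passed the size rule. With this scaling 369 of all measured genes were lower by the rule and 12 were higher. In bulk tissue, fewer ciliated cells and less RNA per ciliated cell cannot be told apart.

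Cfap45, the protein of the B tubule lumen, had the lowest ratio of the members. Its normalised intensities were 3126 (array 1) and 2404 (array 2) in homozygotes, against 5503 and 3752 in heterozygotes. Both homozygote values lay below both heterozygote values. Here and for the members below, such values are technical repeats of 1 pool per genotype. The share of all measured genes whose values separate in this way is not given, so separation alone marks no member out. On the 2 arrays the homozygote level was 56.8% and 64.1% of the heterozygote level, log2 ratios of -0.82 and -0.64 (-0.73 ± 0.12, SD over 2 arrays). With median centring the ratios were -0.35 and -0.71, past the size limit on array 2 only.

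1700007K13Rik, whose product links the inside of the A tubule to outer dynein arm docking, was lower by probe 1, the probe that stands for the gene. It had intensities of 8739 and 7200 in homozygotes, against 13488 and 10899.7 in heterozygotes, and the groups did not overlap. The homozygote level was 64.8% and 66.1% of the heterozygote level, with log2 ratios of -0.63 and -0.60 (-0.61 ± 0.02). The ratio on array 2 lay just past the size limit of 0.58, and with median centring the ratios were -0.06 and -0.72. Probe 2, a far dimmer probe, had 187 and 285 in homozygotes, against 178 and 387 in heterozygotes. Its foreground on array 1 was 193 in homozygotes and 167 in heterozygotes, over backgrounds of 53.5 and 45. Its ratios were 0.08 and -0.44 (-0.18 ± 0.37), so its arrays did not share a direction and its groups overlapped. The gene is called by probe 1, and averaged over both probes, where the dim probe 2 has equal weight, it did not pass the size rule.

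Cfap52, a WD-repeat protein that also lies in the B tubule, had the ratio nearest to 0. Its intensities were 9039.5 and 8621 in homozygotes, against 9881 and 9659 in heterozygotes. The groups did not overlap but lay close together, with log2 ratios of -0.13 and -0.16 (-0.15 ± 0.03), or 91.5% and 89.3% of the heterozygote level. With median centring its mean turned to 0.07, and on array 1 its ratio of 0.42 was above the median of all genes, 0.39. Enkur, the adaptor protein by the junction of the B tubule, had 1859 and 1764 in homozygotes, against 2141 and 2268 in heterozygotes. Its groups did not overlap, and its log2 ratios were -0.20 and -0.36 (-0.28 ± 0.11), short of the size limit on both arrays.

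**Figure D2:**
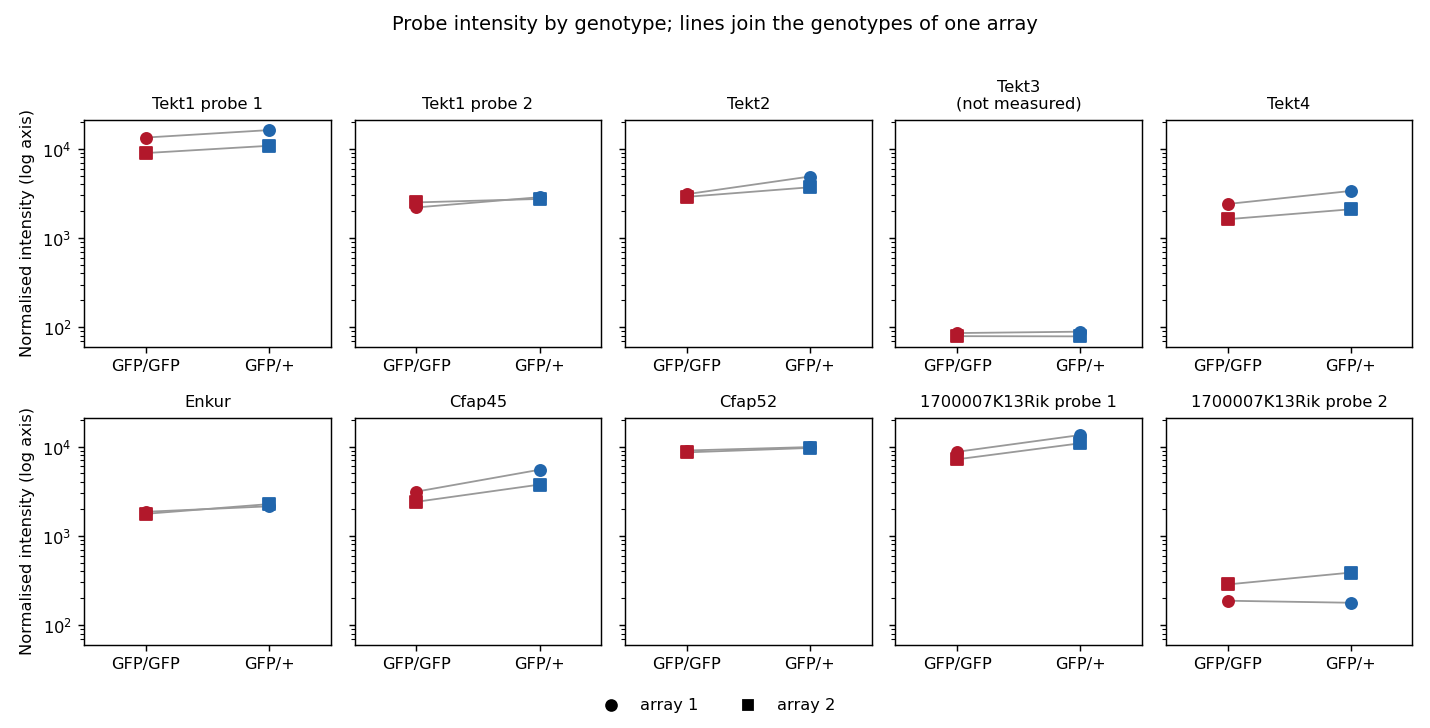
Normalised intensity (log axis) of the 10 member probes in GFP/GFP (left, red) and GFP/+ (right, blue), with circles for array 1, squares for array 2 and lines that join the genotypes of an array. Cfap45 has 3126 and 2404 in GFP/GFP against 5503 and 3752 in GFP/+, and the Tekt3 probe, not above background, stays between 78.9 and 89.1.

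Among the tektins, the filament proteins of the A tubule lumen, none passed the size rule. Tekt2, which is needed for sperm motility in the mouse, had intensities of 3095 and 2891 in homozygotes, against 4888 and 3702 in heterozygotes. The groups did not overlap. Its log2 ratios were -0.66 and -0.36 (-0.51 ± 0.21), so it passed the size limit on array 1 and missed it on array 2, the widest spread among the gene values of the members. Tekt4, also needed for normal sperm movement in the mouse, had 2404 and 1623 in homozygotes, against 3366 and 2098 in heterozygotes. Its homozygote value on array 1 exceeded its heterozygote value on array 2, so the groups overlapped, and within arrays the log2 ratios were -0.49 and -0.37 (-0.43 ± 0.08).

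Tekt1 was the tektin with the smallest shift, by both of its probes. Probe 1 had 13359 and 8954 in homozygotes, against 16195 and 10799.9 in heterozygotes. The groups overlapped across arrays, while the within-array log2 ratios were nearly equal at -0.28 and -0.27 (-0.27 ± 0.01). Probe 2 had 2198 and 2505 in homozygotes, against 2866 and 2740 in heterozygotes, with ratios of -0.38 and -0.13 (-0.26 ± 0.18). The probes' means differed by less than the spread of probe 2. With median centring Tekt1 probe 1 was at 0.33 on array 1 and -0.40 on array 2.

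Tekt3, studied mainly for its part in sperm motility in the mouse, was not well above background in either genotype on either array. Its probe stood at 85.9 and 79.4 in homozygotes, against 89.1 and 78.9 in heterozygotes, and the groups overlapped. In the authors' deposited value table all 4 Tekt3 values were 15, the lowest value of that table. No ratio can be read for it, and its transcripts were not detectable with this probe.

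**Figure D3:**
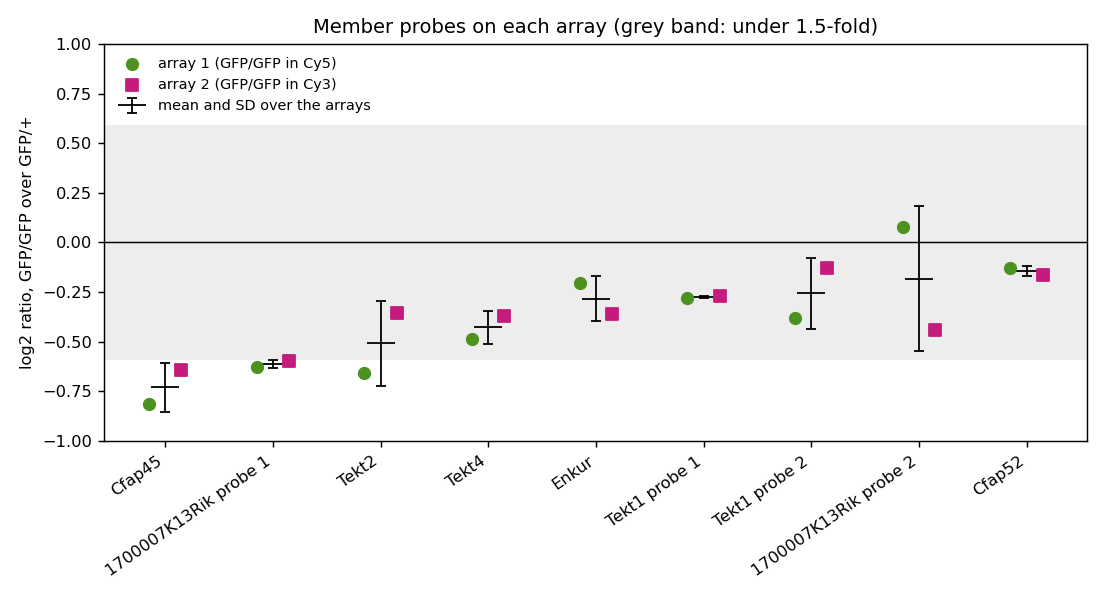
Log2 ratio of GFP/GFP over GFP/+ for the 9 measured member probes on array 1 (circles) and array 2 (squares), with the mean and SD over the 2 arrays, ordered by mean. Only Cfap45 and 1700007K13Rik probe 1 lie below the grey band (under 1.5-fold) on both arrays, and 1700007K13Rik probe 2 crosses 0; with median centring no probe lies below the band on both arrays.

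Ordered by their mean ratio, the members ran from Cfap45 through 1700007K13Rik, Tekt2, Tekt4, Enkur and Tekt1 to Cfap52. The array values of Cfap45 and 1700007K13Rik did not overlap, nor did those of Tekt4 and Enkur or of Tekt1 and Cfap52. Neighbours whose array values overlapped were 1700007K13Rik and Tekt2, Tekt2 and Tekt4, and Enkur and Tekt1, so their order is not resolved. The pairs without overlap are not firmly ordered either, as with median centring the array values of each such pair overlapped. The gap between Cfap45 and 1700007K13Rik, 0.117, was also below the SD of Cfap45, 0.123. The median ratio of the 7 members was -0.43 (-0.49 on array 1 and -0.36 on array 2), against -0.02 over all measured genes. Members were bright probes for the most part, with 5 of 7 above the median brightness of measured genes. Among the 9313 genes brighter than the median, 0.634% were lower by the size rule and 25.1% had ratios below 0 on both arrays.

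**Figure D4:**
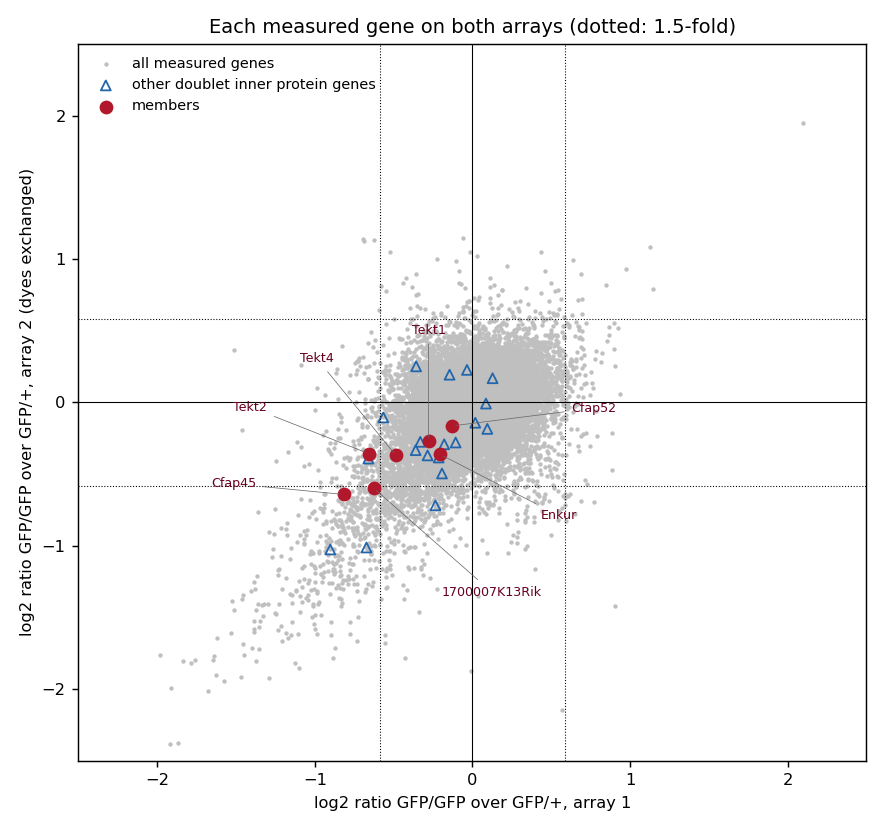
Log2 ratio of GFP/GFP over GFP/+ on array 1 (x axis) and array 2 (y axis) for 18626 measured genes (grey), the 7 measured members (red) and 19 other doublet inner protein genes (blue triangles), with dotted lines at 1.5-fold. All 7 members lie below 0 on both axes, and Cfap45 and 1700007K13Rik lie past both dotted lines. With median centring 3 of the 7 lie above 0 on array 1, where the median of all measured genes is then 0.39.

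The scaling bears on these ratios unequally on the 2 arrays. On array 1 the intensity-dependent fit (loess) shifted the members' gene values by amounts between -0.61 (Tekt1 probe 1) and -0.39 (Enkur). On array 2 the shifts were small and of the opposite sign, 0.06 for Tekt4 and 0.13 for Tekt1 probe 1 at the extremes. On array 2 alone, all 7 members were below 0 with either scaling. With median centring the median of all genes moved to 0.12 (0.39 on array 1 and -0.16 on array 2), and the members' median was -0.24. Members' median minus all-gene median was -0.36 with median centring, against -0.41 with loess. All 7 members' means stayed below the all-gene median under both scalings. Across all measured genes the 2 arrays correlated with r = 0.50 with loess and r = -0.05 with median centring, where genes are not independent and share both RNA pools.

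**Figure D5:**
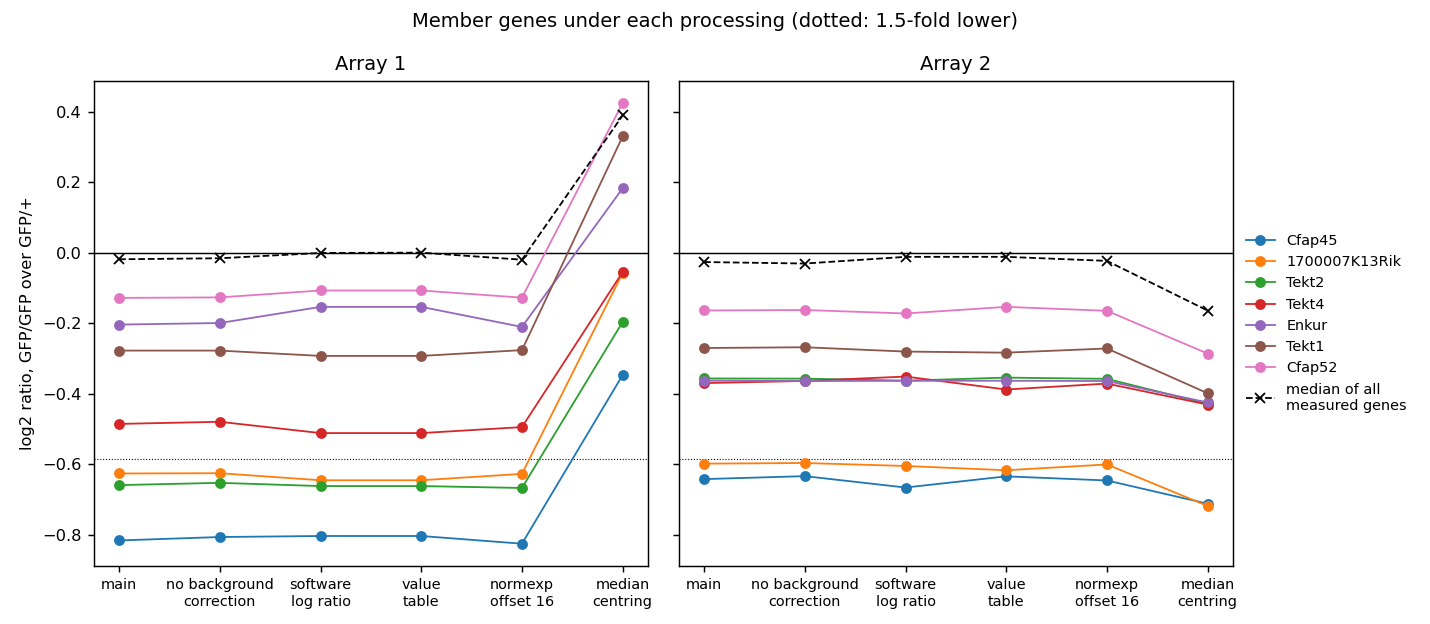
Log2 ratio of GFP/GFP over GFP/+ of the 7 measured members on array 1 (left) and array 2 (right) under 6 ways of processing, with the median of all measured genes as a dashed line and 1.5-fold lower as a dotted line. The first 5 ways differ little, and median centring lifts all members on array 1, with Tekt1, Enkur and Cfap52 above 0, together with the median of all genes.

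Beyond the members, 33 other genes for proteins of the doublet lumen were listed, of which 19 were found by name and measured. Each was sought under its listed name or, for some, 1 older name. Under those names no probe was found for Tektip1, Cfap141, Cfap107, Cfap276, Cfap77, Cfap90, Cfap95, Cfap68, Spag8 or Pierce2. Any probes that the array holds for them under other names are thus missing, and the counts below cover the 19 only. By the size rule 2 of the 19 were lower and 0 higher, against 2.33% lower among all measured genes. Of the 19, 12 had ratios below 0 on both arrays, against 34.0% of all measured genes, and 1 above 0 on both, against 4779 of 18626 measured genes. Their median was -0.30 (-0.10 with median centring), and 6 of the 19 were brighter than the median of measured genes. Among genes that bright, 0.634% were lower by the rule and 25.1% were below 0 on both arrays. Both shares were thus larger among dimmer genes. The 2 lower genes of this list were Fam183b and Fam166b. Fam183b, the gene for CFAP144, stood at -0.90 and -1.03 (-0.96 ± 0.09). Fam166b, the gene for CIMIP2B, stood at -0.67 and -1.01 (-0.84 ± 0.24), with a mean log2 brightness of 8.5, against 13.5 for Fam183b. With median centring 1 gene of this list passed. Spaca9, which is found in the B tubule, was the next farthest from 0, at -0.66 and -0.39 (-0.53 ± 0.19), and missed the rule on array 2.

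The listed genes nearest to 0 were Eno4, a sperm enolase, at 0.02 ± 0.24, Efhb at 0.04 ± 0.07 and Efhc2 at -0.05 ± 0.20. Mns1, a filament-like protein whose loss disturbs left-right placement in mice, was the gene above 0 on both arrays, at 0.13 and 0.17 (0.15 ± 0.03). Cfap53, needed for the axis in mice and people, had -0.21 and -0.38 (-0.30 ± 0.12). Cfap53 and Mns1 were picked for mention after their values were seen.

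For comparison, a list of 42 genes of other axonemal parts (dynein arms, radial spokes, central pair, nexin link and their assembly factors) had 29 measured, of which 1 was lower and 0 were higher. Their median was -0.17, and 20 of the 29 were below 0 on each array. Of the 29, 7 were brighter than the median of measured genes. Of all measured genes 2.33% were lower by the size rule and 34.0% were below 0 on both arrays. The lower gene of this axonemal list was Dynlrb2, a dynein light chain, at -0.92 and -0.98 (-0.95 ± 0.04). Among the 48 measured genes of both lists, those with the ratio pair nearest to Cfap45 were Zmynd10 (distance 0.27 on the log2 scale over the 2 arrays), Spaca9 (0.29) and Drc3 (0.34). Those nearest to 1700007K13Rik were Zmynd10 (0.080), Dnaaf1 (0.16) and Drc3 (0.19). Zmynd10 and Dnaaf1 are assembly factors of dynein arms, and Drc3 is a subunit of the nexin link. Zmynd10 itself stood at -0.56 and -0.55. These distances rest on 2 arrays of the same RNA and say nothing beyond them.

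Foxj1, the master regulator of motile ciliogenesis, was just past the size limit on array 1 and short of it on array 2, at -0.59 and -0.46 (-0.52 ± 0.09). Rfx3, an X-box binding factor of node cilia, was at 0.02 and 0.01 (0.02 ± 0.01) by its brightest measured probe. Other Rfx3 probes gave 0.21 and -0.08, and 0.11 and 0.39, so its probes disagreed by more than the arrays did for the brightest one. All 9 node and midline markers were measured and 0 were called. Of the 9, 5 were below 0 on both arrays, as were 34.0% of all measured genes, and 2 were above 0 on both, as were 4779 of 18626 measured genes. Gsc stood at -0.52 and -0.80, Lefty1 at -0.64 and -0.37 and Shh at -0.40 and -0.49, against 0.32 and 0.34 for T, genes that were named after their values were seen. The median of the 9 was -0.09, with summed intensities of 125628 and 131293 in homozygotes and 128699 and 116708 in heterozygotes. These sums rest mostly on the brightest markers, Foxa2 and T (mean log2 brightness 15.8 and 15.4). Dim ones such as Lefty1 (8.6) hardly enter them. Markers of the node territory named on the labels were thus detected.

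Of 5 decidua and trophoblast markers, 4 were measured and all 4 were above 0 on both arrays with a median of 0.30, and 1, the decidual prolactin family gene Prl8a2, passed the size rule at 1.13 and 1.09. Among all 18626 measured genes, 4779 were above 0 on both arrays. Of the 4 markers, 0 were brighter than the median of measured genes. Their summed intensities were 4237 and 2775 in homozygotes, against 2989 and 2122 in heterozygotes, and Tpbpa was not above background. Of 7 visceral endoderm markers all were measured, with 0 called, a median of 0.02 and sums of 124025 and 124261 in homozygotes, against 124844 and 115997 in heterozygotes. Of 6 blood and endothelium markers 5 were measured, with 0 called, a median of -0.19 and sums of 3514 and 2970.2 in homozygotes, against 4230.2 and 3432 in heterozygotes, and Hba-x was not above background. Of 5 sperm and testis markers, relevant because several members are known from sperm, 3 were measured, 0 were called and the sums were 1322 and 873 in homozygotes, against 1289 and 880.2 in heterozygotes, and Akap4 and Odf1 were not above background. The part of these cells, or of the node and midline cells, in the members' ratios was not tested.

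On each array 45018 spots were read, 43379 of genes and 1639 of controls, and none of the gene spots was saturated. Gene spots well above background made up 81.5% (array 1) and 64.0% (array 2) in homozygotes and 77.7% and 68.1% in heterozygotes. The number of arrays limits only the technical precision, and with 1 pool per genotype the spread between pools is unknown. Noto was not analysed here, and the genotypes are therefore as the labels give them.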

How the data were processed

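Per the file headers, the authors used version 9.5.3.1 of Agilent Feature Extraction, the tool that the submitters' processing notes name. It wrote the deposited foreground and background intensities, a log10 ratio of red over green, and flags for spots above background or outlying. The authors also deposited a value table of processed intensity per sample, with a floor and a constant factor whose method is unstated. The scanner files of an array's 2 samples were identical, so each array was read once.

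Mean foreground and median background intensities were corrected by normexp (offset 50) and fitted by loess within arrays in limma 3.58.1 (R 4.3.3), with control spots at weight 0 and outlier spots (179 and 165) left out. Array 2 was turned so that each ratio reads homozygote over heterozygote. Levels by genotype came from loess and Aquantile values. Spots of a probe were averaged, and a gene took its brightest measured probe. Names were updated through a RefSeq table (33110 probes matched, 8064 kept the file's name). Summaries used pandas 2.3.3 and numpy 2.4.6 under Python 3.11.15, and plots matplotlib 3.10.9. The script was tested on simulated data with the same dye trend on both arrays, and with changes only in brighter probes and larger than any member's. That test does not cover unlike trends on the 2 arrays or changes as small as those of the members. Named genes were every member probe, called genes of the inner protein list with the 3 nearest to and 3 farthest from 0, the 3 nearest neighbours of each called member, Foxj1 and Rfx3. Outside this rule, Mns1, Cfap53, Dynlrb2, Prl8a2, Gsc, Lefty1, Shh and T were named after their values were seen. Members, lists and motifs were chosen with earlier results of these data known. Alternatives covered background correction, scaling, source of values, offset, probe choice, filter, fold size and single arrays.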

Additional observations from a re-analysis of the deposited data

How the results depend on the processing

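Median centring of each array in place of loess left 0 members lower by the size rule, 4 members below 0 on both arrays and a members' median of -0.24, and 1 lower gene and a median of -0.10 in the other inner protein list. Over all measured genes, median centring gave 369 lower and 12 higher, and a median of 0.39 on array 1 and -0.16 on array 2. The members' lower count was 1 with the mean of all probes and 0 at 2-fold. In the other inner protein list it was 0 at 2-fold, and without the filter on dim probes that list's median was -0.21. Over all genes, 714 were lower and 101 higher with the scanner software's log ratio, 95 were higher with the value table, 22 higher with an offset of 16, 914 lower and 118 higher at 1.3-fold, and 94 lower and 2 higher at 2-fold. With 1 array alone, lower members numbered 2 (array 2) to 3 (array 1, with Tekt2), higher members 0 and members below 0 7, and the members' median ran between -0.49 and -0.36. The other list then held 3 lower genes with a median between -0.28 and -0.21, and all genes 644 to 944 lower and 112 to 124 higher. The cause was not tested, other than that a fold size or single array changes the rule by construction. Reversal was looked for only in the 2 called probes, and neither reversed. The mean of Cfap52, which was not called, went from -0.15 to 0.07 with median centring. Of 45 comparisons of a member probe with another processing, 37 moved by less than the technical SD and 8 by more. Median centring alone moved 6 probes by more and 3 by less. The 3 were the probes with the widest SDs, 1700007K13Rik probe 2 (0.37), Tekt2 (0.21) and Tekt1 probe 2 (0.18). A move by less than the SD can thus reflect a wide spread between arrays. The software's log ratio and the value table each moved 1 by more, Tekt1 probe 1, whose SD was 0.005. Every ratio is already paired within its array, the unit that the replicate numbers mark, and no test was made to which a replicate block could be added.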
